A study of Mus musculus with 26 samples.

Results

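These data describe mouse neural stem cells that had been given eGFP, the control protein of the series, and nothing else. Of the 26 arrays, the 6 whose description names eGFP over-expression were taken: pools 1, 2 and 3, each with the repeats R1 and R2. All cells came from embryos of wild-type C57BL6 mice at day E14.5, and all had received their construct by lentivirus. The other constructs used here were MYBtr, MYBQKI5, MYBQKI6 and QKItr, with 1 array in each of the 3 pools. Thus the eGFP cells share the viral treatment and the pools with them and lack the MYB or QKI insert. MYB is a transcription factor, QKI an RNA-binding protein, and MYBQKI a fusion known from a childhood brain tumour. The meaning of tr is not given, nor whether a pool is a set of embryos, a culture or a batch. Culture medium, density, time after infection and any sorting of infected cells are not given in the labels. The 8 arrays of a second set, in which Qk or LacZ had been suppressed, had medians of their own and were not used.

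Neural stem cells renew themselves and give rise to neurons, astrocytes and oligodendrocytes. In culture they are usually kept dividing by epidermal and fibroblast growth factors, which act through receptor tyrosine kinases on the cell surface. Proliferating cells of this kind are known for strong glycolysis, for synthesis of lipids and nucleotides, and for D-type cyclins that carry growth signals into the cell cycle.

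Each gene value is the mean log2 signal of the probe sets that name that gene alone, and 23152 genes had one. The arrays were alike in scale, with a median gene of 4.97 to 5.03, a percentile 25 of 3.67 to 3.82 and a percentile 75 of 6.87 to 6.96. A gene was placed in the upper quartile if it lay above percentile 75 on all 6 arrays, which 4853 genes did (21.0%), and in the lower quartile if it lay below percentile 25 on all 6, which 4375 genes did (18.9%). Probes differ in affinity, so a percentile places a signal on the array and is not a transcript abundance, and genes are set here against the array and not against each other. Even a low percentile does not show that a transcript was absent. Repeats of a pool differed little: the SD of the difference between them over all genes was 0.25 to 0.27, with correlations across genes of 0.991 to 0.993. Arrays of different pools differed more, with an SD of 0.36 to 0.51 and correlations of 0.968 to 0.984. Means are given with the SD over 3 pools, after the repeats of a pool were averaged.

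Signals of the markers given for these cells were high. All 4, Nes, Olig2, Sox9 and Vim, lay at percentile 97.2 or higher on every array. Nes, the intermediate filament nestin of neural progenitors, read 9.40 and 9.32 (R1 and R2) in pool 1, 9.29 and 9.21 in pool 2, and 9.24 and 9.31 in pool 3, a mean of 9.29 ± 0.06 (SD, n = 3 pools). Its 6 values lay within 0.19 of each other, and no pool stood apart. Vim, the filament vimentin of radial glia and many other immature cells, read 11.24 and 11.27, 11.06 and 11.14, and 10.96 and 10.97 in the same order. Sox9, a transcription factor of glial progenitors, read 9.91 and 9.79 in pool 1 and 10.11 to 10.25 on the 4 other arrays. Olig2, a transcription factor of ventral progenitors and of the oligodendrocyte lineage, read 11.75, 11.68, 11.55, 11.67, 11.48 and 11.45. It was among the 20 highest gene values, an order that also reflects the affinity of the probes. With the highest probe set of each gene in place of the mean, the mean percentiles over the arrays were 98.7 for Olig2, 92.3 for Nes and 96.2 for Sox9, while that of Vim was not lower. Set among all probe sets, Nes lay at 91.5.

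Of 25 measured genes of neural stem cells and radial glia, 14 lay in the upper quartile (56.0%, against 21.0% of all genes) and 1 in the lower. Besides the 3 of the markers that belong to this list, Sox2, which maintains the progenitor state, had a mean of 10.55 ± 0.12 and Ptprz1, a receptor phosphatase of radial glia, 10.98 ± 0.12. Fabp7, a fatty acid binding protein of radial glia, had a mean of 10.79 ± 0.36, and Slc1a3, a glutamate transporter that radial glia share with astrocytes, had 10.23 ± 0.29. The member in the lower quartile was Prom1, the membrane protein prominin also known as CD133. Its values of 3.59, 3.80, 3.37, 3.34, 3.54 and 3.21 lay between percentiles 15.8 and 24.7, so this widely used stem cell marker gave no high signal on any array.

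**Figure D1:**
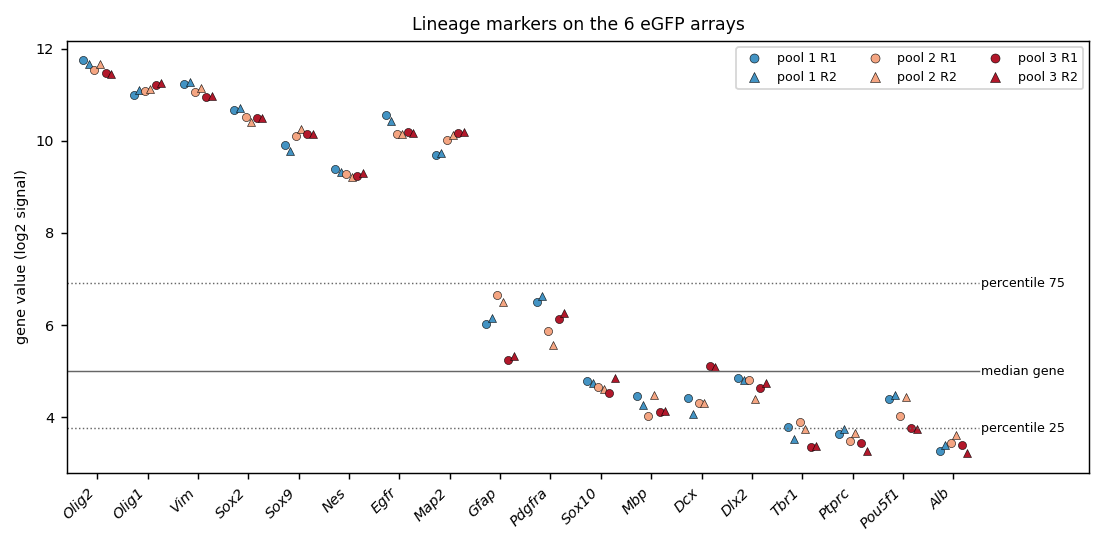
Log2 gene values (vertical axis) of 18 lineage markers on each of the 6 eGFP arrays, with colour for the pool and circles or triangles for repeats R1 and R2. Lines mark the mean percentile 25, median and percentile 75 of all genes; Olig2, Olig1, Vim, Sox2, Sox9, Nes, Egfr and Map2 lie above the upper line on all arrays, while Sox10, Mbp, Tbr1, Ptprc and Alb lie at or below the median.

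In the oligodendrocyte lineage, 5 of 14 measured precursor genes lay in the upper quartile (35.7%), 9 in neither quartile and none in the lower. Olig1, the close relative of Olig2, read 11.00, 11.11, 11.09, 11.12, 11.21 and 11.26, at percentile 99.8 or higher. Its value rests on 2 probe sets. Sox8, a SoxE factor, had a mean of 9.12 ± 0.26, Sox6, a SoxD factor, 8.27 ± 0.13, and Cspg4, the proteoglycan NG2 of precursor cells, 7.38 ± 0.16. Sox10, the SoxE factor that drives myelin genes, read 4.79, 4.75, 4.66, 4.60, 4.52 and 4.85, all below the median gene of their array. Nkx2-2, which acts as precursors differentiate, lay between percentiles 30.8 and 46.2, and Gpr17, a receptor of committed precursors, between 30.1 and 43.0. Pdgfra, the receptor for PDGF that marks precursor cells, read 6.50 and 6.62, 5.88 and 5.57, and 6.13 and 6.26, between percentiles 57.7 and 71.5. Of 12 measured genes of myelinating oligodendrocytes none lay in the upper quartile. Cnp, a myelin enzyme, lay between percentiles 73.5 and 79.2, Mbp, the myelin basic protein, lay between 32.1 and 39.7, and Ermn, a late myelin protein, lay in the lower quartile at a mean of 2.90 ± 0.16.

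Astrocyte genes were divided. Of 16 measured, 6 lay in the upper quartile (37.5%): Slc1a3, Slc1a2, the other main glutamate transporter of glia (7.67 ± 0.15), Hepacam, a glial adhesion protein (10.07 ± 0.36), Aldoc, a glycolytic enzyme of astrocytes (9.56 ± 0.19), Glul, which makes glutamine (8.91 ± 0.17), and Fgfr3 (7.21 ± 0.32). Gfap, the intermediate filament that defines mature astrocytes, read 6.03 and 6.15 in pool 1, 6.66 and 6.50 in pool 2, and 5.25 and 5.33 in pool 3, between percentiles 53.1 and 70.8. Aqp4, the water channel of astrocyte endfeet, read 3.99 and 4.09, 5.30 and 5.21, and 5.60 and 5.51, with pool 1 below the median gene and pools 2 and 3 above it. These last genes therefore sat in the middle of the array in some or all pools.

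Neuronal genes lay mostly at or below the middle of the array. Only Map2 of 19 measured was in the upper quartile, with 9.69 and 9.73, 10.02 and 10.13, and 10.17 and 10.19; its product binds microtubules in dendrites and is also made by some glial progenitors. Dcx, a microtubule protein of migrating young neurons, lay between percentiles 30.8 and 51.5, and Neurod6, a factor of cortical projection neurons, lay in the lower quartile. Tubb3, a tubulin of young neurons, read 7.46 and 7.40 in pool 1, 6.34 and 6.11 in pool 2, and 5.99 and 6.02 in pool 3, so that pool 1 alone lay above percentile 75. Neurod1, a neuronal differentiation factor, was likewise highest in pool 1, with 7.28 and 6.98 against 5.72 to 6.38 elsewhere. None of 11 measured ependymal and choroid plexus genes lay in the upper quartile, and Foxj1, the factor for motile cilia, lay between percentiles 61.2 and 67.4.

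Of the regional identity genes, Olig1 and Olig2 lay in the upper quartile and no measured gene of the 3 lists lay in the lower. The ventral forebrain list had 14 measured genes with a median percentile of 44.5, and the posterior list had one of 34.6. The Dlx genes, which specify interneurons of the ventral forebrain, were not in the upper quartile: Dlx2 read 4.40 to 4.85, below the median gene, and Dlx1 lay between percentiles 57.8 and 65.0. Of 11 measured dorsal forebrain genes and 18 measured midbrain, hindbrain and spinal cord genes, none lay in the upper quartile. Lhx2, a cortical selector gene, came closest in the dorsal list, at percentiles 70.6 to 78.0, and Hoxa5, a gene of the caudal axis, in the posterior list, at 68.9 to 78.6. Tbr1 and Eomes, which mark dorsal neurons and their progenitors, lay between percentiles 17.6 and 30.1 on all arrays.

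Markers of other cell types were not in the upper quartile. None of 59 measured markers of microglia and immune cells, vessels, fibroblasts and meninges, pluripotent cells and other tissues reached it, and their median percentile was 37.2. In the lower quartile lay 4 of them (6.8%, against 18.9% of all genes): Ptprc, the leukocyte antigen CD45 (3.54 ± 0.16), Dcn and Lum, proteoglycans of fibroblasts (3.33 ± 0.32 and 2.61 ± 0.04), and Alb, the albumin of liver (3.39 ± 0.12). Pou5f1, a factor of pluripotent cells, lay between percentiles 25.8 and 40.5. Some arrays went above percentile 75 for 2 of the markers, named after their values were seen. Cd68, a lysosomal protein abundant in macrophages, read 6.53 and 6.45, 7.74 and 7.92, and 6.69 and 6.88, above it on both arrays of pool 2. Foxc1, a transcription factor of the meninges, read 6.99 and 6.86, 6.65 and 6.55, and 6.53 and 6.56, above it on the R1 array of pool 1 (percentile 76.2). For others of the immune list, Ptprc read 3.49 and 3.65 in pool 2, and Aif1, a microglial calcium-binding protein, 3.26 and 3.69. No marker lay above percentile 88.2 on any array, and the part of such cells in any result was not tested. With the highest probe set of each gene in place of the mean, 2 of the 59 lay in the upper quartile, Myh11 and Col1a1, which were singled out after their values were seen.

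**Figure D2:**
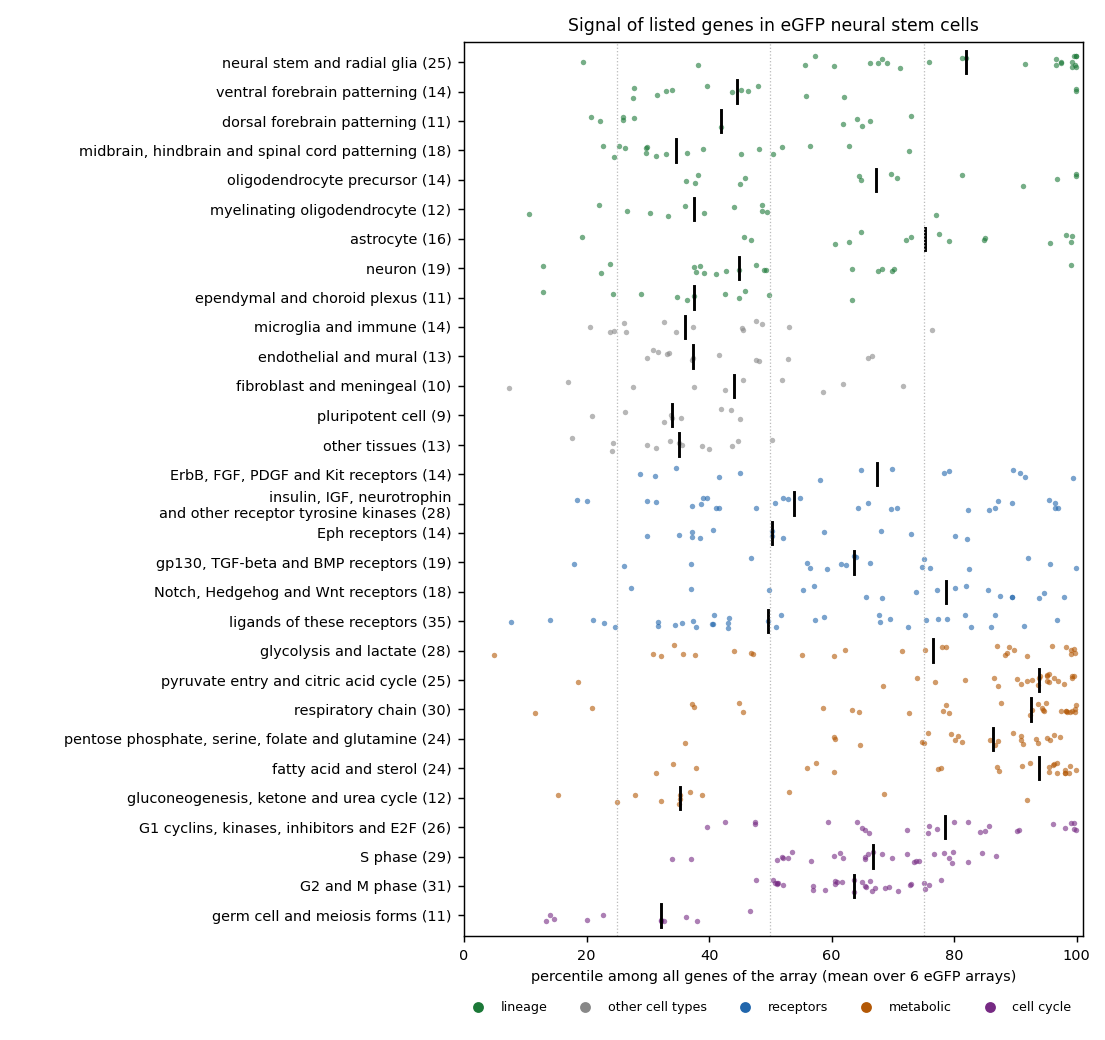
Mean percentile over the 6 eGFP arrays (horizontal axis) of each measured listed gene, with a row per list, the number measured in brackets, and a black bar at the list's median. Citric acid cycle, respiratory chain and fatty acid lists have medians of 92.5 to 93.9, whereas patterning and other cell type lists have medians of 33.9 to 44.5.

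Among receptors for ErbB, FGF, PDGF and Kit ligands, 6 of 14 measured lay in the upper quartile (42.9%) and none in the lower. Egfr, the receptor for the growth factor EGF, stood out with 10.57 and 10.44 in pool 1, 10.15 and 10.15 in pool 2, and 10.20 and 10.18 in pool 3, at percentile 99.3 or higher. All 6 values exceeded 10, and pool 1 was the highest. Its relatives Erbb4, a neuregulin receptor, and Erbb2, a co-receptor without a ligand of its own, had means of 8.09 ± 0.17 and 7.16 ± 0.13. Erbb3, another neuregulin receptor, had a mean of 4.03 ± 0.14 and lay between percentiles 23.0 and 34.9. Fgfr1, the FGF receptor of most neural progenitors, read 8.17, 8.23, 8.11, 8.34, 8.23 and 8.23, with an SD over pools of 0.01. Fgfrl1, an FGF receptor without a kinase domain, had a mean of 8.35 ± 0.48. Pdgfrb, the PDGF receptor of mural cells, lay between percentiles 37.3 and 44.8. Kit, the receptor for stem cell factor, read 5.08 and 4.91, 5.60 and 5.67, and 6.39 and 6.18, from the median of the array in pool 1 to percentile 67.7 at most.

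The list of insulin, IGF, neurotrophin and other receptors, mostly tyrosine kinases, had 28 measured genes, 9 of them in the upper quartile (32.1%). Igf1r and Insr, the receptors for IGF1 and insulin, a usual additive of neural stem cell media, had means of 8.87 ± 0.28 and 8.07 ± 0.26, and Igf2r, which clears IGF2, had 7.75 ± 0.57. Ddr1 and Ddr2, receptors for collagen, had 9.15 ± 0.03 and 9.09 ± 0.44, and Ryk, a Wnt co-receptor, had 9.06 ± 0.09. Ntrk2 and Ntrk3, receptors for neurotrophins, had 7.82 ± 0.29 and 7.86 ± 0.08. Ros1, a receptor long without a known ligand, was the member in the lower quartile. Only Ephb2 of 14 measured Eph receptors, which guide migrating cells, lay in the upper quartile, a share of 7.1% that is below that of all genes.

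Of the gp130, TGF-beta and BMP receptors, 4 of 19 measured lay in the upper quartile, a share of 21.1% that is close to that of all genes. They were Bmpr2, the type II BMP receptor, with 10.88, 10.79, 10.96, 11.15, 10.97 and 11.07, its type I partner Bmpr1a (8.35 ± 0.06), Il6st, the shared chain gp130 (8.89 ± 0.16), and Lifr, which joins gp130 to bind LIF (7.46 ± 0.18). Osmr, the oncostatin M partner of gp130, had a mean of 3.80 ± 0.12. The Notch, Hedgehog and Wnt receptors had the larger share, 8 of 18 measured (44.4%). Smo, the transducer of Hedgehog signals, read 9.34, 9.37, 9.29, 9.47, 9.50 and 9.55, and Ptch1, the Hedgehog receptor and a target of the pathway, had a mean of 8.09 ± 0.32. Notch1 and Notch2, receptors that hold progenitors undifferentiated, had 8.71 ± 0.16 and 8.08 ± 0.15, and Lrp6, a Wnt co-receptor, 8.59 ± 0.05.

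Of 35 measured ligands of these receptors, 5 lay in the upper quartile (14.3%, below the share of all genes) and 2 in the lower. Egf and Fgf2, the factors usually added to such cultures, had means of 4.33 ± 0.11 and 4.05 ± 0.19 and lay between percentiles 26.9 and 41.6. Jag1 and Dll1, ligands of Notch receptors, had means of 8.29 ± 0.25 and 7.42 ± 0.33, and Kitl, the ligand of Kit, 7.85 ± 0.51. Il6, an inflammatory cytokine, lay between percentiles 6.4 and 9.9. Vegfa, a growth factor for vessels, read 8.22 and 8.24 in pool 1, 10.65 and 10.62 in pool 2, and 10.94 and 11.01 in pool 3, all in the upper quartile and with no overlap between pool 1 and the others.

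Of the 5 groups of lists, the metabolic genes held the largest share of high signals: 82 of 143 measured lay in the upper quartile (57.3%) and 4 in the lower. The list of the citric acid cycle and pyruvate entry had 21 of 25 (84.0%). Cs, the citrate synthase that opens the cycle, read 10.45, 10.51, 10.44, 10.39, 10.68 and 10.70, and Mdh2, the malate dehydrogenase that closes it, 10.08, 10.13, 10.01, 9.99, 10.25 and 10.25. Neither varied by more than 0.31 over the 6 arrays. Idh3b and Idh3g, subunits of the mitochondrial isocitrate dehydrogenase, had means of 10.06 ± 0.21 and 9.44 ± 0.29, and Sdha and Fh1, the succinate dehydrogenase subunit and fumarase, both had 8.85, with SDs of 0.11 and 0.06. The member in the lower quartile was Pdha2, the form of a pyruvate dehydrogenase subunit made in testis.

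Of 30 measured respiratory chain genes of the nucleus, 18 lay in the upper quartile (60.0%). Cox6a1, the form of a cytochrome oxidase subunit made in most tissues, had 12.08, 12.12, 11.96, 12.06, 12.06 and 12.06 and was among the 20 highest gene values. Its muscle form Cox6a2 lay between percentiles 51.8 and 71.2, and Cox8c, another tissue-specific form, lay in the lower quartile, whereas Cox8a, the general form, had a mean of 10.85 ± 0.03. Atp5b, a catalytic subunit of ATP synthase, had 10.85 ± 0.05. The 8 highest gene values of all were mitochondrial genes, each from 1 probe set: ND4 at 13.17, COX1, CYTB, ND5, ND1, ND4L, ND2, and COX3 at 12.44. ND3 was also among the 20 highest. The other 11 of these were Fth1, the ferritin heavy chain (12.40 ± 0.22), Ckb, the brain creatine kinase (12.27 ± 0.07), Cox6a1, Scd2, the tetraspanin Cd81 (11.83 ± 0.12), the ribosomal proteins Rpl28 and Rplp1, B2m, the light chain of MHC class I (11.61 ± 0.47), Olig2, the chromatin protein Ptma (11.53 ± 0.18), and the protease inhibitor Serpine2 (11.53 ± 0.11). B2m read 11.72 and 11.67 in pool 1, 12.01 and 12.04 in pool 2, and 11.07 and 11.13 in pool 3.

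Many lipid genes were also high, with 17 of 24 measured fatty acid and sterol genes in the upper quartile (70.8%) and none in the lower. Scd2, the stearoyl-CoA desaturase of brain, read 11.98, 11.91, 11.72, 11.67, 11.98 and 12.02, and Fasn, the fatty acid synthase, 9.80, 9.79, 9.68, 9.69, 10.11 and 10.16. Genes of fatty acid oxidation were there as well as those of synthesis: Cpt1a, a carnitine transferase, had a mean of 9.02 ± 0.23, Acadm, a medium-chain dehydrogenase, 9.12 ± 0.04, and Hadha, a subunit of the trifunctional protein, 9.49 ± 0.21. Cpt1c, a relative of Cpt1a, had 9.44 ± 0.09. The pentose phosphate, serine, folate and glutamine list had 14 of 24 (58.3%), among them Shmt2, which feeds mitochondrial folate from serine (9.30 ± 0.45), and Got2, a mitochondrial transaminase (9.02 ± 0.09). Glycolysis had 11 of 28 (39.3%), among them Gpi1, the glucose phosphate isomerase (11.30 ± 0.92), and Pgk1, the phosphoglycerate kinase (10.87 ± 0.83), whereas Pgk2, the testis form, lay at percentile 7.4 or lower. Pathways of liver and kidney were not high: of 12 measured genes of gluconeogenesis, ketone bodies and the urea cycle, only Pck2, the mitochondrial carboxykinase, lay in the upper quartile (8.45 ± 0.71), and Otc, a urea cycle enzyme, lay in the lower (3.25 ± 0.03).

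High and low genes also differed in a feature the array values did not use, the sequence before their start. RefSeq promoters of 300 bases (build GRCm38.p6, 250 bases before the start and 50 after, the first listed start of a gene) were found for 15968 of 19714 protein-coding genes measured. Their median number of CpG dinucleotides was 15. It was 24 for the 3860 genes of the upper quartile with a promoter and 2 for the 2599 of the lower quartile. The letters TATAAA, searched on both strands, were in 5.9% of upper quartile promoters, 31.5% of lower quartile promoters and 12.9% of all. These are descriptions across genes, and the base composition differed with them, with a median GC content of 63.0% in the upper and 41.7% in the lower quartile.

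Of 26 measured G1 genes of the cell cycle, 13 lay in the upper quartile, 13 in neither quartile and none in the lower. Ccnd2, the D-type cyclin of many neural progenitors, read 11.46, 11.45, 11.46, 11.37, 11.25 and 11.30, and Ccnd1, its relative, 10.34, 10.41, 10.64, 10.64, 10.49 and 10.43. Their partner kinase Cdk4 had a mean of 10.00 ± 0.07. Inhibitors of these kinases were in the upper quartile as well: Cdkn1a, the p21 protein, read 10.37, 10.38, 10.54, 10.32, 10.33 and 10.32, and Cdkn1b, the p27 protein, had a mean of 9.46 ± 0.13. Rb1, the retinoblastoma protein that these kinases act on, had 9.02 ± 0.24. Of 29 measured S phase genes 4 lay in the upper quartile (13.8%), and of 31 measured G2 and M phase genes none did. Of 11 measured germ cell and meiosis forms, none lay in the upper and 4 in the lower quartile, among them Spo11, which cuts DNA in meiosis (3.12 ± 0.12).

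The signals of S, G2 and M genes differed between the pools. Pools were compared with a moderated F test in limma, in which the 2 repeats of each pool gave the spread, and a gene was called where its p, adjusted after Benjamini and Hochberg, was under 0.05. Of 23152 genes, 3609 were called (15.6%), and 997 of these differed by at least 2-fold between the highest and the lowest pool. When only the 11576 genes above the median were fitted, 5405 were called (46.7%), 2906 of them among the 3609. The share of all genes thus includes many dim genes, and for lists of high signal it is a low mark to be set against. Of the 31 G2 and M genes, 30 were called, all 30 highest in pool 3 and 29 lowest in pool 1, and the mean of the list was 4.80 in pool 1, 5.88 in pool 2 and 7.57 in pool 3. Mki67, which codes for the proliferation antigen Ki-67, read 4.33 and 4.32 in pool 1, 6.74 and 6.64 in pool 2, and 9.24 and 9.36 in pool 3. The pools did not overlap, and the signal moved from percentile 36.8 at the lowest to 97.7 at the highest, a span of 4.97 on the log2 scale (adjusted p = 4.6e-05, limma). No background value was used, so a low pool may lie near it, and a span is one of signal and may understate the change in transcript. Top2a, the topoisomerase that untangles replicated DNA, read 4.92 and 5.09, 7.25 and 7.23, and 9.29 and 9.36, a span of 4.32 on the log2 scale. Plk1, a kinase that drives mitosis, read 5.73 and 5.77, 7.01 and 7.01, and 9.08 and 9.09, and Cenpf, a kinetochore protein, 4.19 and 4.32, 5.77 and 5.81, and 7.74 and 7.84. Ube2c and Cdc20, parts of the machinery that degrades cyclins at the end of mitosis, spanned 3.57 and 2.59. The member not called was Ccnb2, a mitotic cyclin, with pool means of 5.35, 5.20 and 4.86 (adjusted p = 0.076, limma). In bulk RNA, fewer cells of a kind and less RNA per cell cannot be told apart, so these values do not say how many cells were dividing.

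**Figure D3:**
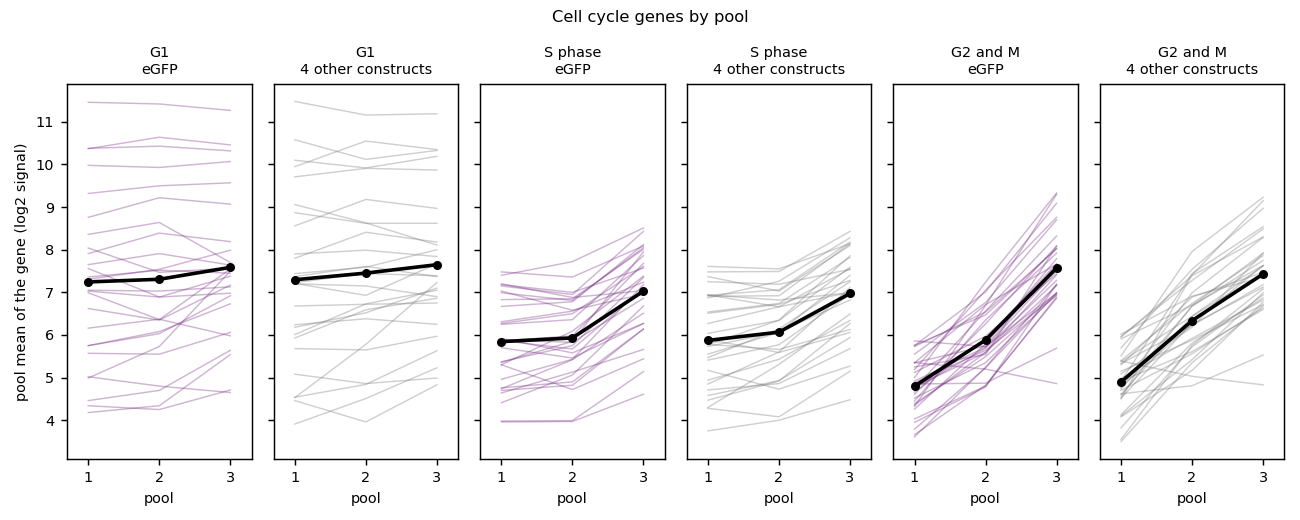
Pool means in log2 signal (vertical axis) of the G1, S phase and G2 and M phase genes in eGFP cells (purple) and in the mean of the 4 other constructs (grey), with a thin line per gene and a black line for the list's mean. The G2 and M mean is 4.80, 5.88 and 7.57 in eGFP pools 1, 2 and 3, and 4.90, 6.34 and 7.43 in the other constructs.

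S phase genes followed with a later step. Of 29 measured, 27 were called, all 27 highest in pool 3, of which 18 were lowest in pool 1 and 9 in pool 2, and the means of the list were 5.84, 5.93 and 7.03. Mcm5, a subunit of the replicative helicase, read 5.47 and 5.25, 5.98 and 5.72, and 8.00 and 7.90, a span of 2.59 (adjusted p = 2.0e-04, limma). Pcna, the sliding clamp, read 7.46 and 7.50, 7.41 and 7.32, and 8.14 and 8.03, so pool 2 lay slightly below pool 1 and pool 3 lay above both. Orc6 and Slbp, an origin protein and a histone mRNA binding protein, were not called (adjusted p = 0.31 and 0.07, limma). Of the 26 G1 genes 10 were called (38.5%, against 15.6% of all genes), 8 of them highest in pool 3. E2f8, an atypical E2F factor, had pool means of 4.99, 5.73 and 7.50 and E2f1, which activates S phase genes, 5.75, 6.08 and 6.73. Cdkn2b, the inhibitor p15, was the called G1 member that was highest in pool 2 and lowest in pool 3, with 8.36, 8.64 and 7.70. The D-type cyclins Ccnd1 and Ccnd2 spanned at most 0.27 over pool means.

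The arrays of the other constructs gave the same order. In the mean of MYBtr, MYBQKI5, MYBQKI6 and QKItr, 29 of the 30 called G2 and M genes had the same highest and lowest pool as in eGFP cells, and 23 of the 27 S phase genes did. Over all 3609 called genes the share was 66.2%. These are different arrays from the same 3 pools. What set the pools apart is not stated in the labels and was not tested.

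Several promoters of the G2 and M list that hold the letters TTTGAA are shown. Whether these letters bear on the shared movement of the list was not tested. The element known as CHR, for cell cycle genes homology region, is read by complexes that hold mitotic genes silent or activate them. Each line gives the 170 bases before the first listed start on the gene's own strand, from RefSeq promoters of GRCm38.p6, with TTTGAA or its reverse complement TTCAAA in capitals. Mki67 lies at chr7:135716380-135716549 on the minus strand, Top2a at chr11:99024190-99024359 on the minus strand, Cdc20 at chr4:118437344-118437513 on the minus strand and Ube2c at chr2:164769759-164769928 on the plus strand.
Mki67: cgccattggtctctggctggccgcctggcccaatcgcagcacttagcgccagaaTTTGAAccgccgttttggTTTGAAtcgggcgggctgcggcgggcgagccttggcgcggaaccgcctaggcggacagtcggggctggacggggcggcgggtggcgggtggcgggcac
Top2a: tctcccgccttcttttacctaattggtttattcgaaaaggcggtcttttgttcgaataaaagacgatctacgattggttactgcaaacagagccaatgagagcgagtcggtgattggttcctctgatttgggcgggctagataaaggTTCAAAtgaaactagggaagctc
Cdc20: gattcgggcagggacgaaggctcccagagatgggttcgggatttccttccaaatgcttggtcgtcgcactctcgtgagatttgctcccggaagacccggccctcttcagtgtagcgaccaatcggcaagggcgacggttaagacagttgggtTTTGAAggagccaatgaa
Ube2c: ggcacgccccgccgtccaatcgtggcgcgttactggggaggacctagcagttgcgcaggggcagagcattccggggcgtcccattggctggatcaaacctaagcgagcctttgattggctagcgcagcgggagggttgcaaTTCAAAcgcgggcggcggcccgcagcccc
The TTTGAA letters were in 19 of 26 promoters of 300 bases found for the G2 and M list (73.1%), in 4 of 25 of the S phase list (16.0%) and in 15.5% of all 15968. Ccnb2, the G2 and M member not called between pools, had them too. Birc5, Nusap1 and Cenpe did not have them and spanned 3.24, 3.06 and 3.01 over pool means. CCAAT, the box bound by the factor NF-Y, was in 73.1% of the G2 and M promoters and 72.0% of the S phase promoters, against 38.8% of all. The E2F letters TTTCCCGC or TTTGGCGC were in 8 of the 25 S phase promoters (32.0%), in none of the 26 G2 and M promoters and in 2.2% of all. All were searched on both strands, matches could overlap one another, and a match is a description and not a site in use. Mcm5 shows the E2F letters in capitals, as their reverse complement, within the 170 bases before its start at chr8:75109339-75109508 on the plus strand.
Mcm5: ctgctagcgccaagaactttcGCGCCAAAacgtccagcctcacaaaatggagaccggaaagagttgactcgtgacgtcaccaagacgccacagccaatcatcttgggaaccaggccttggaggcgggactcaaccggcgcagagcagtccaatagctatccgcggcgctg

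Glycolysis split the pools too. Of 28 measured genes, 15 were called (53.6%, against 15.6% of all genes), all 15 lowest in pool 1 and 14 highest in pool 3. The means of the list were 6.40, 7.01 and 7.26. Slc2a1, the glucose transporter GLUT1, read 7.45 and 7.54 in pool 1, 8.77 and 8.77 in pool 2, and 9.33 and 9.35 in pool 3 (adjusted p = 2.5e-04, limma). Hk2, the inducible hexokinase, read 7.10 and 7.04, 8.39 and 8.26, and 9.30 and 9.31. In both, each pool was clear of the next. Gpi1 read 10.23 and 10.25, 11.73 and 11.78, and 11.94 and 11.88, so most of its step lay between pools 1 and 2. Ldha, the lactate dehydrogenase subunit of glycolytic tissues, had pool means of 5.95, 7.52 and 8.13, whereas Ldhb, the subunit of oxidative tissues, had 8.24, 7.86 and 7.88 and was not called (adjusted p = 0.15, limma). In the other constructs 12 of the 15 had the same highest and lowest pool. The citric acid cycle had 4 of 25 called (16.0%) and the respiratory chain 3 of 30 (10.0%), shares near or below that of all genes, dim ones included.

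**Figure D4:**
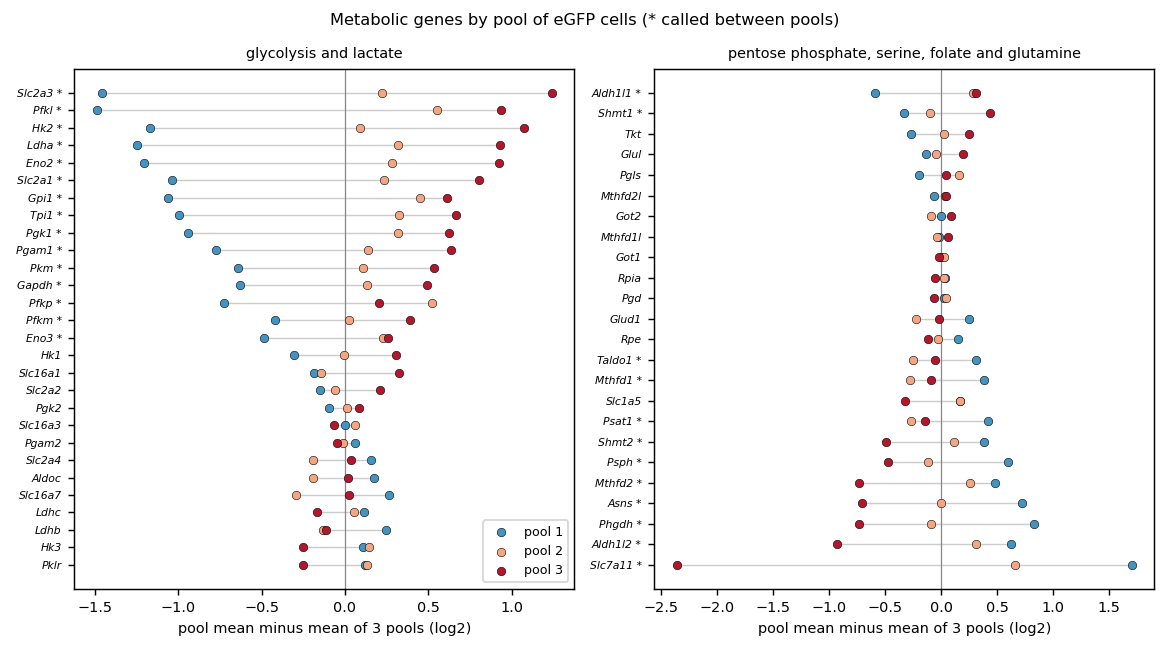
Pool means of eGFP cells minus the mean of the 3 pools (horizontal axis, log2) for the measured glycolysis genes (left) and pentose phosphate, serine, folate and glutamine genes (right), with a star for genes called between pools. On the left 15 genes are starred and all have pool 1 lowest; on the right 12 are starred and 10 have pool 1 highest.

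Serine and folate genes ran the other way. Of the 24 measured genes of the pentose phosphate, serine, folate and glutamine list, 12 were called, 10 of them highest in pool 1 and 7 lowest in pool 3. Slc7a11, the transporter that brings in cystine, read 9.45 and 9.35 in pool 1, 8.45 and 8.26 in pool 2, and 5.06 and 5.63 in pool 3, a span of 4.05 (adjusted p = 1.5e-04, limma). Phgdh, the first enzyme of serine synthesis, read 9.07 and 9.01, 8.26 and 7.99, and 7.36 and 7.60, and Asns, the asparagine synthetase, 9.06 and 9.05, 8.42 and 8.24, and 7.63 and 7.61. Pool 1 was above pool 2 and pool 2 above pool 3 in all 3 genes. Shmt1, the cytosolic partner of Shmt2, went against them with pool means of 5.80, 6.03 and 6.57. It was among the 2 called genes of the list that were highest in pool 3. All 12 called genes had the same highest and lowest pool in the other constructs. Of 24 fatty acid and sterol genes 8 were called (33.3%, against 15.6% of all genes), 7 of them highest in pool 3 and 7 lowest in pool 2. Hmgcs1, a synthase of the sterol pathway, read 10.15 and 10.21, 9.24 and 9.20, and 10.91 and 10.88. Here 3 of the 8 had the same highest and lowest pool in the other constructs.

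The 10 genes with the smallest p between pools all had an adjusted p of 4.6e-05 (limma). Besides Mki67, Top2a, Plk1 and Cenpf they were 2 genes known to rise when oxygen is short, Ankrd37 (pool means 4.12, 7.88 and 9.00) and Fam162a (7.41, 10.00 and 10.43), 2 genes known to respond to interferon, Ifit1 (8.82, 8.64 and 5.45) and Usp18 (7.96, 8.87 and 5.57), Cth, an enzyme of cysteine synthesis (8.67, 7.18 and 5.29), and Zscan4b (5.77, 7.22 and 9.48), which has near-identical copies, so its signal is uncertain. All 10 kept their highest and lowest pool in the mean of the other constructs.

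Of 136 measured lineage genes, 24 were called between pools, a share of 17.6% that is near the 15.6% of all genes, and none of the called genes were in the 3 patterning lists or the myelin list. The 4 markers Nes, Olig2, Sox9 and Vim were not called. Of the 16 measured astrocyte genes 9 were called (56.2%), with no common order: Gfap was highest in pool 2 (adjusted p = 0.0019, limma), Aqp4 in pool 3 (adjusted p = 6.3e-04, limma) and Hepacam in pool 1, with pool means of 10.43, 10.08 and 9.71. Tnc, the matrix protein tenascin C of the stem cell niche, read 8.59 and 8.53, 10.59 and 10.57, and 9.86 and 9.93. Tubb3 and Neurod1 were called with pool 1 highest, whereas Dcx was called with pool 3 highest. Among receptors and ligands 30 of 128 were called (23.4%); Vegfa spanned 2.75 on the log2 scale, Lrp5, a Wnt co-receptor, had pool means of 7.20, 8.11 and 8.55, Kit had 4.99, 5.64 and 6.28, and Egfr, Fgfr1 and Bmpr2 were not called.

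The spread between repeats carries these calls, and the labels do not say whether repeats are separate cultures. Without any of the 6 arrays in turn, 1668 to 2163 genes were called between pools, and with the highest probe set of each gene in place of the mean 998 were, of which 10 were S phase genes, 9 glycolysis genes, 7 serine and folate list genes and 1 an astrocyte gene. The 9 astrocyte calls were 4 to 6 without each array in turn.

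The eGFP cells were then set against the other transduced cells, as the mean of the eGFP pools minus the mean of the 4 other group means. Myb itself, which the 3 MYB constructs carry, had a mean of 4.62 ± 0.49 in eGFP cells and 4.86 ± 0.42 with QKItr, and 7.23 ± 0.12, 6.99 ± 0.31 and 7.46 ± 0.40 with MYBtr, MYBQKI5 and MYBQKI6, in the order the labels call for. Of all genes 67 were called (0.289%), 15 higher and 52 lower in eGFP cells. Samples of the same pool varied together, and a fit that kept the pool number as a block gave 707 calls (3.05%), of which 335 were higher and 372 lower. Without eGFP pool 1, 2 or 3, 15, 14 and 21 genes were called with no block.

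Of the 552 listed genes, 4 were called. Kit was lower in eGFP cells by 2.10 on the log2 scale (difference -2.10, SE 0.26, adjusted p = 0.0023, limma), with means of 5.64 ± 0.65 with eGFP and 5.73 ± 0.62 with QKItr against 8.60 ± 0.19, 8.19 ± 0.42 and 8.43 ± 0.20 with the MYB constructs. Cdk6, a kinase partner of D-type cyclins, was lower as well (difference -1.43, SE 0.18, adjusted p = 0.0028), with 7.28 in eGFP cells, 7.32 with QKItr and 8.78 to 9.56 with the others. Cnp differed by -0.70 (SE 0.13, adjusted p = 0.049, limma), and Lifr was the called gene that was higher (difference 0.93, SE 0.17, adjusted p = 0.043, limma). For all 4, the QKItr mean lay within 0.17 of the eGFP mean, and the 3 MYB constructs lay farther away. Cnp and Lifr lost their calls when the eGFP column of any pool was left out, and Cdk6 when that of pool 2 was (adjusted p = 0.054, limma). In these runs the other constructs kept all 3 pools and there was no block, so pool differences could enter the comparison.

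Among the markers, Nes had 9.29 ± 0.06 in eGFP cells, 8.85 ± 0.15 with QKItr and 8.18 to 8.33 with the MYB constructs, a difference of 0.89 that was not called without the block (adjusted p = 0.079) and was called with it (adjusted p = 0.0043, limma). Olig2 differed by 0.54 (adjusted p = 0.095, and 0.027 with the block) and Vim by -0.35 (adjusted p = 0.26, and 0.023 with the block, limma). Each kept its direction in all 3 pools. Sox9 differed by 0.11 (95% interval -0.13 to 0.35) and Sox2 by -0.03 (-0.24 to 0.18), neither called in either fit. With the block, 29 listed genes were called, 18 higher and 11 lower, a share to be read against 3.05% of all genes. Precursor genes made up 7 of the 18, all higher in eGFP cells: Olig1 (difference 0.85, adjusted p = 0.021 with the block), Olig2, Sox8 (1.26, 0.0063), Sox6 (0.43, 0.014), Cspg4 (0.91, 0.0063), Lhfpl3 (0.72, 0.044) and Pcdh15 (0.71, 0.046, limma). None of these 7 was called without the block. The list was not uniform. Of its 14 measured genes none was called lower, but Pdgfra was lower in eGFP cells in each pool. Its pool means were 6.56, 5.73 and 6.19 with eGFP and 7.02, 6.60 and 6.34 in the mean of the other constructs. Sox10 had 4.77, 4.63 and 4.68 with eGFP and 4.78, 4.44 and 4.53 in the others. No gene of the metabolic lists was called in either fit, and no gene of the S phase or G2 and M lists.

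**Figure D5:**
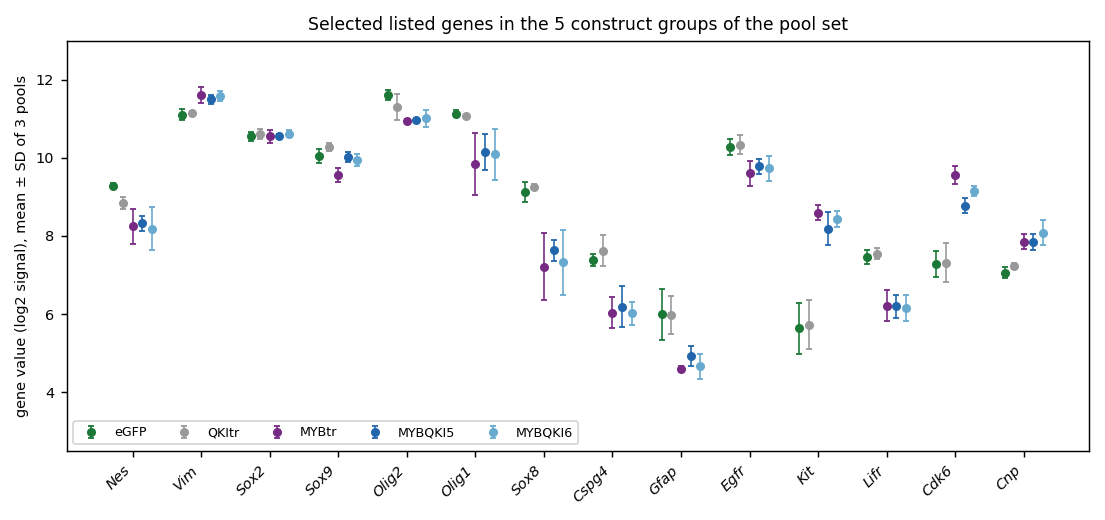
Log2 gene values (vertical axis, mean ± SD of 3 pools) of 14 listed genes with eGFP, QKItr, MYBtr, MYBQKI5 and MYBQKI6. Kit and Cdk6 are at 5.64 and 7.28 with eGFP, beside 5.73 and 7.32 with QKItr, and higher with the 3 MYB constructs; Lifr, Sox8 and Cspg4 show the opposite order.

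The 10 genes with the smallest p in this comparison and the same direction in all pools were Prune2 (difference -2.64, adjusted p = 2.5e-05), Anks1 (-1.62), Plxna2, a semaphorin receptor and the member that was higher in eGFP cells (0.94, adjusted p = 6.6e-04), Myb (-2.02), Sh3rf3 (-1.55), Zmynd10, needed for motile cilia (-2.41), Fras1, a basement membrane protein (-1.69), Dgkg, a diacylglycerol kinase (-1.86), Itm2a (-1.12) and Mylip (-1.04, adjusted p = 0.0023, limma). In eGFP cells the 9 lower genes had means of 4.62 to 7.52, each within 0.24 of its QKItr mean.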

How the data were processed

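Biotin-labelled total RNA of mouse neural stem cells was hybridised to an Affymetrix array, per the labels. Values in the deposited table are log2 signals of 269751 probe sets, as read from their range. The normalization is not given in the sources used here, and no count or background value was used, so depth and detection are unknown, and precision is limited by how many arrays there are. Of the probe sets, 233753 named 1 gene symbol, 5106 several and 30892 none. Gene values were the mean of the log2 values over the probe sets naming no other symbol (median 8 per gene). Of 23152 symbols, 20875 were current in RefSeq, 2189 were updated and 88 were unmatched.

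A set of 30 lists with 579 genes was used, of which 552 were measured and the rest were not analysed here. The lists and members were chosen with earlier results of these data known, and the order of pools in the other constructs and the promoter features were examined after the levels had been seen. Levels were described with no test. Pools were compared on the 6 eGFP arrays and eGFP with the other constructs on 15 columns (repeats averaged), in limma 3.58.1 (R 4.3.3, with the package data.table at version 1.17.8) with lmFit, contrasts.fit and eBayes, no filter on dim signal and Benjamini-Hochberg adjustment over 23152 genes. No label says that repeats or pools are separate animals or cultures. The p-values therefore measure only how far these samples spread, which may be technical. Same-numbered pool samples deviated together from their group means: 30 pairs had correlations of 0.31 to 0.72, against a median of -0.23 over 60 other pairs. Values with the pool as a block therefore stand beside results whose call they change.

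Any list member could be named, first those in a quartile on all arrays and at most 8 per list and direction, with the 20 highest gene values and the 10 smallest p of each comparison, without predicted genes, clones, pseudogenes or small RNAs. Data were also simulated as independent normal noise with each gene's spread, with few genes changed and no shared deviation of samples of a pool. There the pool test recovered 41.0% of changes of 1 on the log2 scale and 89.2% of changes of 2, and the construct comparison 84.7% and 97.8%, over 23152 genes. The real data differed in both respects, so these rates may not hold for them. Plots used matplotlib 3.10.9 and Python 3.11.15.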

Additional observations from a re-analysis of the deposited data

Results flagged for a closer look

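Of 175 named genes, 5 had 1 eGFP array that lay far from the other 5 relative to the range of the 6 values (Dixon's criterion). For 6 independent values, chance alone flags about 1 in 20 genes by this measure. These arrays are repeats within pools, so that rate need not apply here. Aif1 read 3.26 in pool 2 R1 against 3.67 to 3.90 elsewhere, Cdkn1a 10.54 in pool 2 R1 against 10.32 to 10.38, and Erbb3 3.64 in pool 3 R1 against 4.03 to 4.24. Foxj1 read 6.34 in pool 2 R2 against 5.90 to 6.06, and Sox6 7.98 in pool 1 R1 against 8.26 to 8.40. Over all 552 measured listed genes, 16 had such an array.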

How the results depend on the processing

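The counts in the upper quartile held within 1.5 times for lineage and metabolic genes under every alternative run. They moved for other cell types (2 with the highest probe set and 1 with the mean over arrays, against 0), for receptors (20 of 33 with percentiles among all probe sets) and for cell cycle genes (8 with the same percentiles and 28 with the mean over arrays, against 17). The lower quartile counts, 4 in each group, moved with genes of at least 3 probe sets only to 17 for lineage, 10 for other cell types and 10 for receptors, and with the mean over arrays to 13, 9 and 8. With the median of probe sets, other cell types had 2, and with the highest probe set receptors had 1 and cell cycle genes 0. Between pools, 1473 genes were called with the median of probe sets, 998 with the highest probe set, 6191 with a mean-variance trend and 1668 to 2163 without 1 array. With genes above the median only, 5405 of 11576 were called (46.7%). The repeat number as a block gave 2421, but R1 arrays did not deviate together (correlations of -0.19 to -0.02), so repeats share only a number. With the highest probe set, 9 glycolysis, 7 serine and folate, 10 S phase and 1 astrocyte gene were called, and 5 astrocyte genes with the median of probe sets. Without 1 array the astrocyte calls were 4 to 6. Between eGFP and the other constructs, 39 genes were called with the median of probe sets, 21 with the highest probe set, 145 with genes above the median only, 14 to 21 without 1 eGFP pool, and 707 with the pool as a replicate block. Fewer arrays were fitted where an array or eGFP pool was left out, and the cause of the other moves was not tested. Of 180 alternative values for single genes in this comparison, 17 lost their call and 3 gained it. None changed direction where the gene was called in the main or the alternative run, and direction was compared only there.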
